A study of Mus musculus with 12 samples.

Results

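Cadherins and protocadherins were followed in 2 brain regions, striatum and prefrontal cortex, of mice that differed in how they drank ethanol. The members were the 56 genes whose only symbol in the platform annotation was Cdh followed by a number or began with Pcdh, among 18193 genes with a symbol. They were 21 cadherins and 35 protocadherins, read by 101 probe sets, and where a gene had several, the one with the highest average on the 12 arrays stood for it. The rule used gene names and mean level, not any difference between groups, but it was set with earlier results of these data known. In 20 of the 56 genes at least 1 group mean lay above a log2 value of 4, and in 36 none did.

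The animals were male Swiss mice, an outbred stock, 22 weeks old at the end, and 3 arrays were made for each of 4 groups: inflexible drinkers in striatum, light drinkers in striatum, inflexible drinkers in prefrontal cortex and light drinkers in prefrontal cortex. All of them had a free choice between bottles of 5% ethanol, 10% ethanol and water, starting at 6 weeks of age, through 10 weeks of acquisition, 2 weeks of withdrawal, 2 weeks of reinstatement, 2 weeks with quinine at 0.005 g/L in the ethanol and 1 further week. These stages, as the labels list them, add up to 1 week more than the 16 weeks between the stated ages. Inflexible drinkers kept to ethanol in spite of the bitter quinine and had a blood ethanol of 113 ± 11.3 mg/dL, against 48 ± 13.3 mg/dL in light drinkers, which preferred water (the kind of error is not given in the labels). Both classes had drunk ethanol, and no group without it was analysed here. The labels give 1 RNA pool concentration per group, so the 3 arrays of a group may be hybridisations of 1 pool, and each p-value covers the spread between arrays and not between mice. Tissue was dissected whole, and in such bulk RNA fewer cells of a type and less RNA per cell cannot be told apart.

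Cadherins are adhesion proteins of the cell surface whose extracellular repeats bind calcium and the cadherins of a neighbouring cell. Classical cadherins, of type I and type II, are tied to actin through catenins and help to sort neurons into layers and nuclei and to match the partners of a synapse. Protocadherins have other cytoplasmic tails. The clustered ones (alpha, beta and gamma) are expressed in different combinations by single neurons and let a neuron recognise its own branches, while the non-clustered ones, among them the delta protocadherins, mark particular regions and axon tracts, and several of them recruit the WAVE complex, which drives actin branching.

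The start regions of 4 genes are shown because these genes had the largest differences between groups in the family: Pcdh20 and Cdh9 in one direction, Pcdh7 and Cdh10 in the other. The sequences run from 250 bases before to 50 bases after the start of the gene in RefSeq (build GRCm38.p6), each 5′ to 3′ on the gene's own strand, with every CG dinucleotide in capitals. They lie at chr14:88471347-88471646 (minus strand) for Pcdh20, chr15:16728665-16728964 (plus strand) for Cdh9, chr5:57717831-57718130 (plus strand) for Pcdh7 and chr15:18820079-18820378 (plus strand) for Cdh10.
Pcdh20: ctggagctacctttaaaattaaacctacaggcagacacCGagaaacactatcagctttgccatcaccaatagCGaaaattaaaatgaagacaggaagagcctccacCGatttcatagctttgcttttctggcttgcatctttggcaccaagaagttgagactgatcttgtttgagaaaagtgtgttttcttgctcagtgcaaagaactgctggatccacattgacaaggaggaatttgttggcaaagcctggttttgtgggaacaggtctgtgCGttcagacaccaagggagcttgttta
Cdh9: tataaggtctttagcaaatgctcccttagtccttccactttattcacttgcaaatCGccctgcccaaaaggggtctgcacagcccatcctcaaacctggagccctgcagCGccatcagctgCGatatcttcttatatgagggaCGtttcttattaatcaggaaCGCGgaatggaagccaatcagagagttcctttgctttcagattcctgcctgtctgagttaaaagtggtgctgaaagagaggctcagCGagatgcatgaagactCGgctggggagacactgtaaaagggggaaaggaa
Pcdh7: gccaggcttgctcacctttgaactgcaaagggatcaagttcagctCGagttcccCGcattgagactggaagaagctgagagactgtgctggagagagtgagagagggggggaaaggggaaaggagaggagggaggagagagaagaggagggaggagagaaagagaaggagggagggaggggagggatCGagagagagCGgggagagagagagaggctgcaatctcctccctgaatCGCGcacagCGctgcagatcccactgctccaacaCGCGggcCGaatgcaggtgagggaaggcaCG
Cdh10: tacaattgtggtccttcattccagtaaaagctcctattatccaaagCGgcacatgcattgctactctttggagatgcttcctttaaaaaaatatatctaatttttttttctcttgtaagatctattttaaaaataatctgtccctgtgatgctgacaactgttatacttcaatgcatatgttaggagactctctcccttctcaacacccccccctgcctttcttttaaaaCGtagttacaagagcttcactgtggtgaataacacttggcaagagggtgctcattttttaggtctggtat
The window of Pcdh20 held 4 CG dinucleotides, that of Cdh9 8, that of Pcdh7 11 and that of Cdh10 2, against a median of 7 over 32851 start regions of the same length. Among other members called between regions, the window of Pcdh17 held 26, and those of Pcdh15 and Cdh6 8 each. That of Pcdh10, which was called between regions only among light drinkers, held 24. Whether CG content goes with the differences between groups was not tested. GC content was 43.7% for Pcdh20, 48.7% for Cdh9, 59.3% for Pcdh7 and 37.7% for Cdh10, against a median of 52.7%. Both strands were searched for 5 motifs. TATAAA, the TATA box, occurred in 13.6% of all start regions, GGGCGG, the GC box, in 35.7%, TGACGTCA, the cAMP response element, in 1.8%, and GCGNGGGCG, the motif of the EGR factors, in 5.6%. None of these 4 motifs occurred in the 4 windows shown. The E-box CANNTG, present in 72.3% of all start regions, matched 0 times in the window of Pcdh20, 3 times in that of Cdh9, once in that of Pcdh7 and 5 times in that of Cdh10. Start regions were matched for 20 of the 56 genes.

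How many members lay above the threshold differed by family. Of the 10 delta protocadherins, counted together with Pcdh20, 8 had a group mean above log2 4, all but Pcdh1 and Pcdh18. Of the 11 classical type II cadherins 5 did (Cdh8, Cdh9, Cdh10, Cdh11 and Cdh22), and of the 5 classical type I cadherins 2 did (Cdh2 and Cdh4). Only 4 of the 23 clustered protocadherins with a symbol of their own did (Pcdhb7, Pcdhb9, Pcdhb16 and Pcdhb17), and of the 5 other cadherins only Cdh13, which is held to the membrane by a lipid anchor and lacks a cytoplasmic tail. Pcdh12 and Pcdh15 did not. The share above log2 4 was 35.7% for the family, against 39.0% for all genes. Just inside the threshold lay Cdh4, with a highest group mean of 4.01, and Pcdhb9 with 4.12, and just outside it Pcdhb20 with 3.90 and Pcdhb3 with 3.89.

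**Figure D1:**
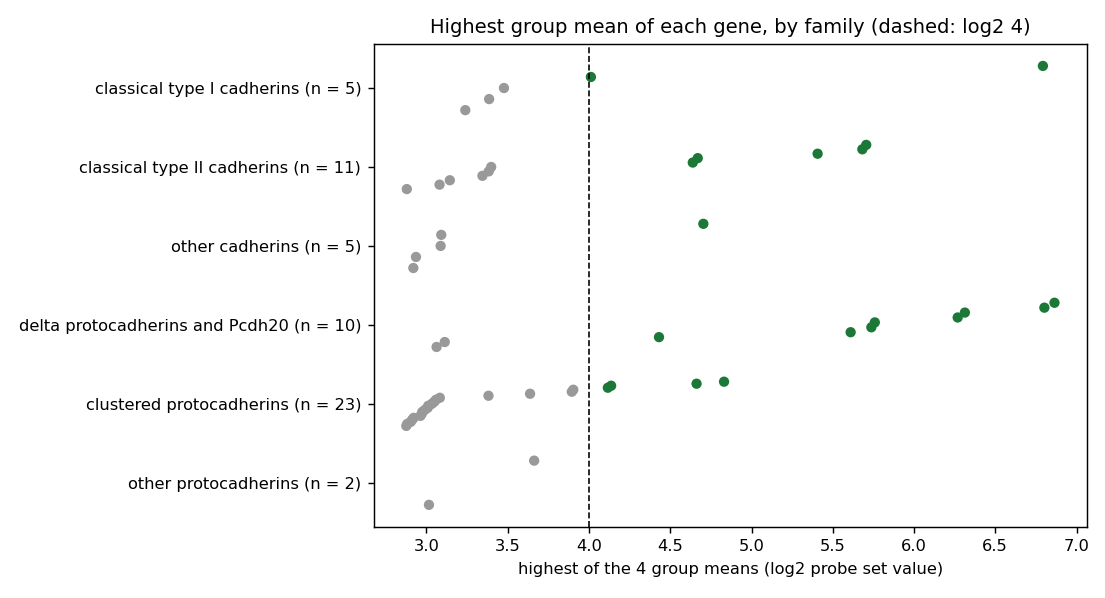
Highest of the 4 group means (log2) for each of the 56 genes, one point per gene, in rows by family, with a dashed line at log2 4. Of the delta protocadherins with Pcdh20, 8 of 10 points lie right of the line, and of the clustered protocadherins 4 of 23.

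Several of the broadly expressed members showed group means that lay close together. Cdh2, N-cadherin, the classical type I cadherin of neurons and their synapses, averaged 6.62 ± 0.25 in inflexible striatum, 6.79 ± 0.26 in light striatum, 6.63 ± 0.17 in inflexible prefrontal cortex and 6.73 ± 0.06 in light prefrontal cortex (log2, SD, n = 3 arrays each, as for all means below). Pcdh9, a delta protocadherin, averaged 6.67 ± 0.38, 6.86 ± 0.19, 6.63 ± 0.19 and 6.66 ± 0.41 in the same 4 groups. Pcdh8, an activity-induced protocadherin that in rat binds N-cadherin and draws it from the synapse, averaged 6.59 ± 0.47, 6.80 ± 0.53, 6.71 ± 0.30 and 6.66 ± 0.33. Cdh11, a type II cadherin, had group means between 5.61 and 5.71. None of these 4 genes passed a test in any comparison. For Pcdh8, Pcdh9 and Cdh11 the 4 highest of the 12 arrays were all among the 5 arrays with high hybridisation controls, and for Cdh2 3 of 4 were. These controls are transcripts added before hybridisation. In 18 control probe sets they split the arrays into 5 high and 7 low. Inflexible striatum had 2 high arrays and 1 low, and each other group had 1 high and 2 low, so the split was not balanced over the 4 groups. 1 of the 5 high arrays, inflexible striatum replicate 1, was the lowest of the 12 for Pcdh8 (6.26), Pcdh9 (6.35) and Cdh2 (6.47). For Cdh11 it had 5.48, below the median array of 5.59. No label gives a batch, and the part of the split in the spread of these genes was not tested. Among the clustered members above the threshold, Pcdhb16 had group means between 4.49 and 4.66, Pcdhb17 between 4.11 and 4.14 and Pcdhb9 between 3.94 and 4.12, and none of these 3 passed a test either.

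The low members include some best known from cells other than neurons. Cdh5, the cadherin of blood vessel endothelium, stayed at or below a mean of 3.34 in each group, Cdh1, E-cadherin of epithelia, at or below 3.39, and Cdh23, which joins Pcdh15 in the tip links of hair cells, at or below 2.94. Values near 3 are close to the median of an array, between 3.12 and 3.14, and summaries of this kind compress differences at such levels. The alpha cluster could not be read gene by gene: 6 probe sets carry 9 or 14 symbols each, all of them alpha genes. The brightest of these averaged 6.51 ± 0.33 in inflexible striatum, 6.54 ± 0.50 in light striatum, 6.75 ± 0.42 in inflexible prefrontal cortex and 6.90 ± 0.42 in light prefrontal cortex, and it passed no test. Clustered protocadherins share parts of their sequence, and the beta genes resemble each other, so probe sets of single beta genes may read their neighbours too.

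In prefrontal cortex, Pcdh20 and Cdh9 rose in inflexible drinkers, and by the probe set that stands for each gene no member fell. Pcdh20, a non-clustered protocadherin, stood at 5.23, 5.51 and 5.22 on the 3 arrays of inflexible drinkers, against 4.00, 4.17 and 3.95 on those of light drinkers. The lowest array of inflexible drinkers was more than 1 log2 unit above the highest of light drinkers, and light prefrontal cortex was the one group of the 4 near the threshold of 4. The difference was 1.28 ± 0.10 (log2, SE), a 2.43-fold higher level in inflexible drinkers (limma, adjusted p = 0.00065 over all probe sets). The other probe set of Pcdh20 averaged 4.04 in inflexible drinkers and 3.20 in light drinkers, a difference of 0.84 ± 0.16 (limma, adjusted p = 0.0461). Among the arrays with low controls the difference was 1.25, and between the 2 arrays with high controls it was 1.34.

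Cdh9, a type II cadherin that in mouse hippocampus is needed for the synapses of dentate granule cells on their pyramidal targets, stood at 4.89, 4.96 and 5.04 in inflexible prefrontal cortex, against 4.41, 4.45 and 4.26 in light prefrontal cortex. All inflexible arrays lay above all light arrays. The difference was 0.59 ± 0.10, or 1.50-fold (limma, adjusted p = 0.034). This call sat near its threshold: it was lost without any one of the 6 prefrontal arrays, without inflexible striatum replicate 3 and without light striatum replicate 2 (adjusted p between 0.0556 and 0.15), while the difference stayed between 0.53 and 0.63 with any one of the 12 arrays left out. It was also lost after quantile normalisation (adjusted p = 0.0542), where Cdh10 passed in its place, with the replicate block (adjusted p = 0.0957) and on the high-control arrays alone. Cdh9 had 1 probe set.

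The 2 calls are 3.6% of the 56 members, against 1.04% of all genes called and 0.577% called higher. At an unadjusted p under 0.05 there were 11 members (19.6%), against 9.17% of all genes. The 3 arrays of one class lay wholly above those of the other in 12 members (21.4%), 5 of them higher and 7 lower in inflexible drinkers, against 14.1% of all genes. The median difference was -0.01 over the members and 0.00 over all genes.

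Other members above the threshold had differences of up to 0.58 in size that missed the test. Pcdh7, a delta protocadherin, stood at 5.59, 5.86 and 5.61 in inflexible prefrontal cortex, against 6.15, 6.50 and 6.16 in light prefrontal cortex. The arrays of the classes did not overlap, and the difference was -0.58 ± 0.12 (limma, adjusted p = 0.086). Cdh10, a type II cadherin of the same subgroup as Cdh9, stood at 5.19, 5.15 and 5.31 in inflexible drinkers, against 5.69, 5.61 and 5.75 in light drinkers. Here too the arrays were apart, with a difference of -0.47 ± 0.10 (adjusted p = 0.09). Pcdhb7, one of the 4 clustered members above the threshold, stood at 4.56, 4.86 and 4.82 in inflexible drinkers, against 4.07, 4.40 and 4.06 in light drinkers, a difference of 0.57 ± 0.16 (adjusted p = 0.215) without overlap. In striatum Pcdhb7 averaged 4.83 ± 0.27 in inflexible and 4.69 ± 0.19 in light drinkers.

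Cdh4, R-cadherin, stood at 3.62, 3.36 and 3.48 in inflexible prefrontal cortex, against 3.82, 4.26 and 3.96 in light prefrontal cortex, a difference of -0.52 ± 0.13 (adjusted p = 0.155). Its arrays did not overlap between the classes, and in striatum it averaged 3.42 ± 0.04 in inflexible and 3.48 ± 0.22 in light drinkers. Cdh4 counts as above log2 4 only through light prefrontal cortex, with a mean of 4.01, the group that is high in this comparison. A dimmer probe set of Cdh4 fell by the test, with -0.42 ± 0.06 (limma, adjusted p = 0.0142), and so did one of Pcdh15, with -0.17 ± 0.03 (adjusted p = 0.0302). The means of that Pcdh15 probe set, 2.95 in inflexible and 3.12 in light drinkers, lay near the median of an array. The brightest probe set of Pcdh15 had -0.32 (adjusted p = 0.263), and the dimmest had 0.06 (adjusted p = 0.942). Cdh22, a type II cadherin, averaged 4.22 ± 0.22 in inflexible and 4.64 ± 0.34 in light prefrontal cortex (difference -0.42 ± 0.18, adjusted p = 0.634). Cdh8, a type II cadherin of corticostriatal neurons, averaged 4.42 ± 0.20 in inflexible and 4.02 ± 0.25 in light prefrontal cortex (difference 0.39 ± 0.19, adjusted p = 0.719). The arrays of Cdh8 did not overlap between the classes, and those of Cdh22 did. With the split of the hybridisation controls as a block, 7 members passed in prefrontal cortex, 1119 probe sets in all: Pcdh20, Cdh9, Pcdhb7 and Pcdh19 higher in inflexible drinkers, and Pcdh7, Cdh10 and Cdh22 lower.

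**Figure D2:**
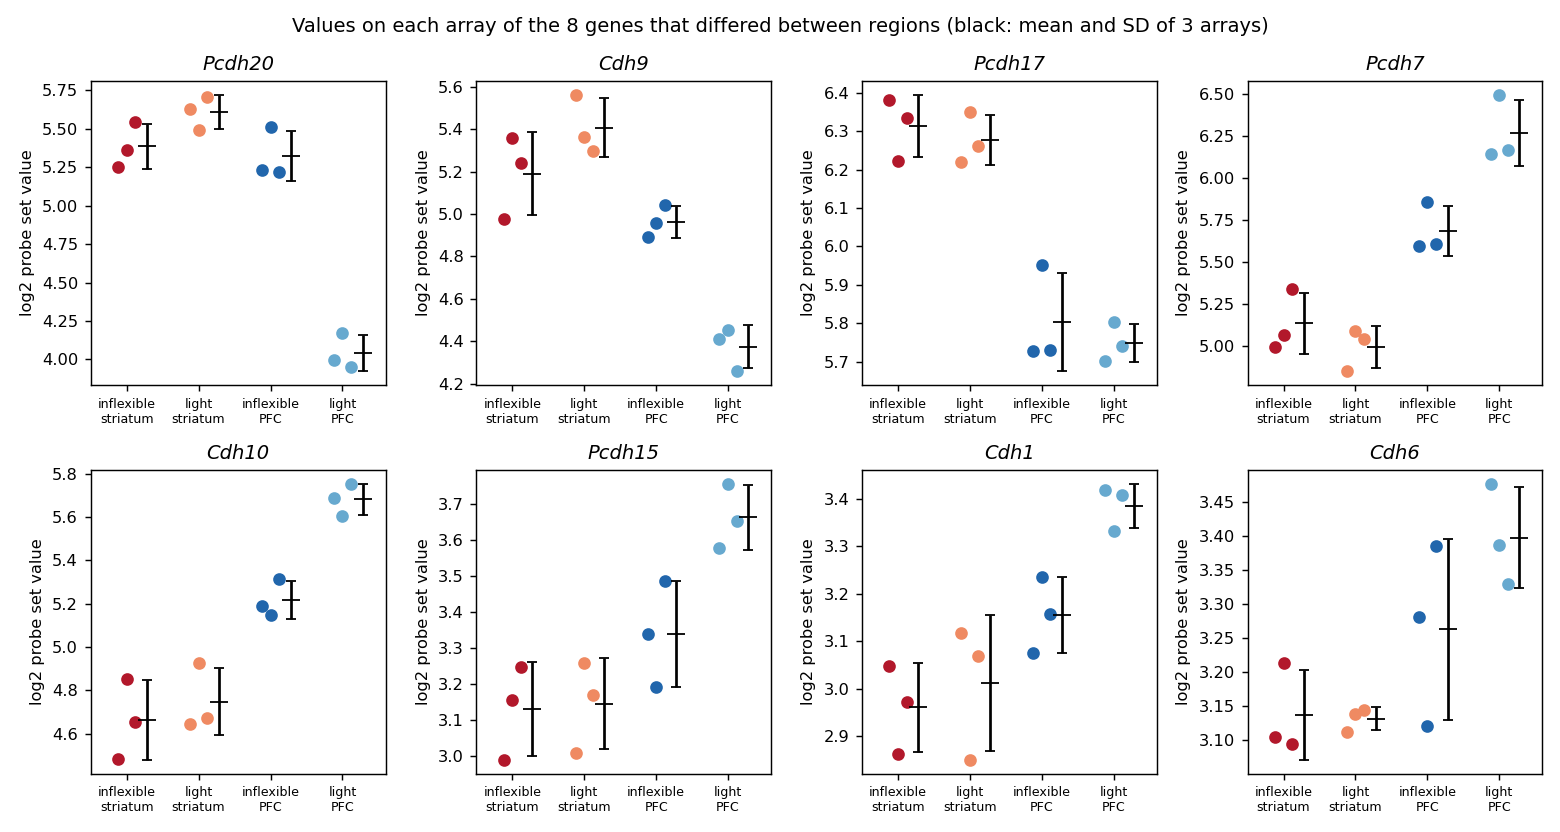
Log2 value on each of the 12 arrays for the 8 genes that differed between regions, one panel per gene, with a short line at each group mean; the groups run inflexible striatum, light striatum, inflexible prefrontal cortex, light prefrontal cortex. In the panels of Pcdh20 and Cdh9 light prefrontal cortex lies lowest, with means of 4.04 and 4.37, and in those of Pcdh7 and Cdh10 it lies highest, with means of 6.27 and 5.68.

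Markers of other cells moved in the same comparison, in which 1.04% of all genes were called and 0.577% called higher. Of 16 medium spiny neuron markers, genes of the main striatal projection neuron, 7 rose and 0 fell in inflexible prefrontal cortex. Their mean per array lay between 5.13 and 5.20 in inflexible drinkers, against 4.49 to 4.53 in light drinkers. Of 15 myelin markers 6 rose and 0 fell, with array means from 5.14 to 5.22 in inflexible drinkers, against 4.35 to 4.49 in light drinkers. Of 13 choroid plexus and ependyma markers only Ttr rose. Array means of this list, Ttr included, ran from 3.67 to 3.82 in inflexible drinkers, against 3.06 to 3.09 in light drinkers. The median difference of its genes was 0.19, and 2 of them lay above log2 4 in any group. Meningeal markers fell in 2 of 11 genes, olfactory bulb and neuroblast markers in 3 of 12 and microglia markers in 1 of 12 (Ctss). Of 15 interneuron markers Npy and Dlx1 fell and 0 rose, with array means from 4.99 to 5.10 in inflexible drinkers, against 5.24 to 5.29 in light drinkers. Of 13 cortical excitatory markers Neurod6 rose and 0 fell, and the list had array means from 5.28 to 5.63 in inflexible drinkers and 5.44 to 5.68 in light drinkers. Among defining markers, Drd1 averaged 4.97 ± 0.13 in inflexible and 3.72 ± 0.10 in light prefrontal cortex, and Penk averaged 6.95 ± 0.09 in inflexible and 5.37 ± 0.29 in light prefrontal cortex. The part of these cell markers in the differences of Pcdh20 and Cdh9 was not tested.

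In striatum no member passed the test between the classes. Limma called 0 of the 56 members, against 0.022% of all genes, and 1 member (1.8%) had an unadjusted p under 0.05, against 3.69% of all genes. That one was Pcdh19, a delta protocadherin coded on the X chromosome that associates with N-cadherin. It stood at 5.18, 5.51 and 5.22 in inflexible striatum, against 5.48, 5.92 and 5.88 in light striatum. In prefrontal cortex it averaged 5.40 ± 0.21 in inflexible and 5.19 ± 0.15 in light drinkers. The striatal arrays overlapped, and their difference was -0.45 ± 0.15 (limma, adjusted p = 1.0); with the hybridisation control split as a block it was -0.34 (adjusted p = 0.0476). Arrays of the classes were apart in 4 members, Cdh15, Pcdh10, Pcdh12 and Pcdhb21 (7.1%), against 7.53% of all genes. Only Pcdh10 of these lay above log2 4. This delta protocadherin, which in mouse is needed for the growth of striatal axons, stood at 5.09, 5.08 and 5.49 in inflexible striatum, against 4.94, 4.90 and 4.92 in light striatum, a difference of 0.30 ± 0.18 (adjusted p = 1.0). None of the 16 medium spiny neuron markers passed in striatum, where their array means lay between 6.48 and 6.64 in inflexible drinkers and between 6.04 and 6.19 in light drinkers.

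The difference between the classes was itself compared between the regions, as the striatal minus the prefrontal difference. By the probe set that stands for each gene Pcdh20 alone passed, 1 of 56 members (1.8%) against 0.44% of all genes. At an unadjusted p under 0.05 there were 9 members (16.1%), against 7.09% of all genes. A dimmer probe set of Cdh4 also passed, with 0.56 ± 0.09 (limma, adjusted p = 0.0329). In striatum Pcdh20 stood at 5.25, 5.36 and 5.54 in inflexible drinkers, against 5.63, 5.49 and 5.71 in light drinkers. These arrays overlapped, and the difference was -0.22 ± 0.10 (limma, adjusted p = 1.0). The striatal difference minus that of 1.28 in prefrontal cortex was -1.51 ± 0.15 on the log2 scale (limma, adjusted p = 0.00362). For the other probe set of Pcdh20 it was -1.04 (adjusted p = 0.133). Cdh9 had a difference between classes of -0.22 ± 0.10 in striatum and 0.59 in prefrontal cortex, apart by -0.81 ± 0.14 (adjusted p = 0.0658), and Pcdh7 had 0.14 in striatum and -0.58 in prefrontal cortex, apart by 0.72 ± 0.18 (adjusted p = 0.227). In this comparison 1 medium spiny neuron marker was higher and 1 lower, and 2 myelin markers and Ttr were lower. Among them Mobp, a myelin protein, had -1.96 ± 0.25 (limma, adjusted p = 0.0144). Of the other lists, 2 olfactory bulb and neuroblast markers and 1 interneuron marker were higher, and 1 cortical excitatory and 1 meningeal marker were lower. Their part in the result of Pcdh20 was not tested.

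**Figure D3:**
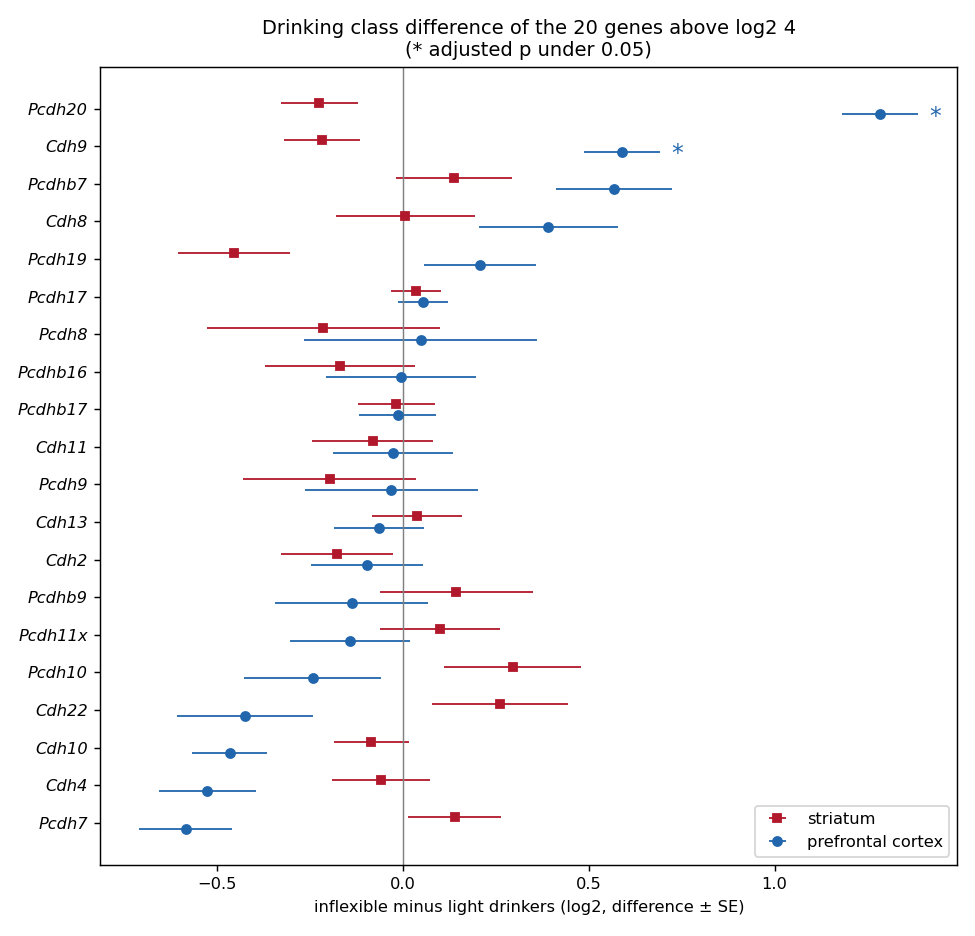
Difference between inflexible and light drinkers (log2, horizontal bars are SE) in striatum (squares) and prefrontal cortex (circles) for the 20 genes above log2 4, sorted by the prefrontal difference; a star marks an adjusted p under 0.05. The prefrontal circles spread from -0.58 (Pcdh7) to 1.28 (Pcdh20) and the striatal squares from -0.45 (Pcdh19) to 0.30 (Pcdh10).

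Between striatum and prefrontal cortex, averaged over the classes, Pcdh20, Cdh9 and Pcdh17 were higher in striatum, and Pcdh7, Cdh10, Pcdh15, Cdh1 and Cdh6 were lower. These 8 genes are 14.3% of the 56 members, against 5.38% of all genes (2.41% higher and 2.96% lower in striatum), and 15 members (26.8%) had an unadjusted p under 0.05, against 15.8% of all genes. The median difference was 0.00 both over the members and over all genes. The region comparison uses the same light prefrontal arrays as the class comparison, so the values of the classes are given apart. By family, 3 of the 10 delta protocadherins with Pcdh20 passed, 3 of the 11 type II cadherins, 1 of the 5 type I cadherins, Pcdh15 of the 2 other protocadherins, and none of the 23 clustered protocadherins or 5 other cadherins.

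Pcdh17 was higher in striatum in each class. This delta protocadherin, which in mouse marks zones of the corticobasal ganglia circuits and regulates the assembly of presynaptic sites there, stood at 6.38, 6.22 and 6.34 in inflexible striatum and 6.22, 6.35 and 6.26 in light striatum. In prefrontal cortex it stood at 5.73, 5.95 and 5.73 in inflexible drinkers and 5.70, 5.80 and 5.74 in light drinkers. All 6 striatal arrays lay above all 6 prefrontal arrays. Striatum was higher by 0.52 ± 0.05, or 1.43-fold (limma, adjusted p = 0.000217). The difference was 0.51 ± 0.07 in inflexible drinkers (adjusted p = 0.00917) and 0.53 ± 0.07 in light drinkers (adjusted p = 0.00182), and the 2 classes differed by 0.05 in prefrontal cortex and 0.04 in striatum.

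Cdh10 was lower in striatum in each class. It stood at 4.48, 4.85 and 4.65 in inflexible striatum and 4.65, 4.93 and 4.67 in light striatum, all below the lowest prefrontal array of 5.15. The difference was -0.74 ± 0.07, or 1.67-fold lower in striatum (limma, adjusted p = 0.000294). Within the classes it was -0.55 ± 0.10 in inflexible drinkers (adjusted p = 0.0441) and -0.93 ± 0.10 in light drinkers (adjusted p = 0.000708). Pcdh7 stood at 5.00, 5.07 and 5.34 in inflexible striatum and 4.85, 5.09 and 5.04 in light striatum, again all below the prefrontal arrays, of which the lowest was 5.59. The difference was -0.91 ± 0.09, or 1.88-fold lower in striatum (adjusted p = 0.000304), with -0.55 ± 0.12 in inflexible drinkers (adjusted p = 0.112) and -1.27 ± 0.12 in light drinkers (adjusted p = 0.0004). Averaged over all 4 probe sets of Cdh10 and all 3 of Pcdh7, dimmer ones included, the difference was -0.33 for each gene and still passed (adjusted p = 0.000224 for Cdh10 and 0.000268 for Pcdh7).

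Pcdh20 and Cdh9 were higher in striatum on the average of the classes and among light drinkers, and did not pass among inflexible drinkers. For Pcdh20 the striatal excess was 0.82 ± 0.07 on average, 1.76-fold (limma, adjusted p = 0.000192). It was 0.06 ± 0.10 in inflexible drinkers (adjusted p = 1.0) and 1.57 ± 0.10 in light drinkers, 2.97-fold (adjusted p = 3.9e-05). Light prefrontal cortex, at 4.04 ± 0.12, stood apart from inflexible striatum at 5.39 ± 0.15, light striatum at 5.61 ± 0.11 and inflexible prefrontal cortex at 5.32 ± 0.16. For Cdh9 the arrays were 4.98, 5.36 and 5.24 in inflexible striatum and 5.56, 5.36 and 5.30 in light striatum. The striatal excess was 0.63 ± 0.07 on average, 1.55-fold (adjusted p = 0.000882), with 0.23 ± 0.10 in inflexible drinkers (adjusted p = 0.678) and 1.03 ± 0.10 in light drinkers (adjusted p = 0.000418). Inflexible arrays of Cdh9 overlapped between the regions, since the lowest striatal array, 4.98, lay below the highest prefrontal array, 5.04.

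The other 3 genes lay below log2 4 in each group. Pcdh15, which forms tip links of hair cells with Cdh23, stood at 2.99, 3.15 and 3.25 in inflexible striatum and 3.01, 3.26 and 3.17 in light striatum. In prefrontal cortex it stood at 3.34, 3.19 and 3.49 in inflexible drinkers and 3.58, 3.76 and 3.65 in light drinkers. The striatal arrays overlapped those of inflexible prefrontal cortex but not those of light prefrontal cortex, and the difference was -0.36 ± 0.07 (limma, adjusted p = 0.0143). Averaged over the probe sets of Pcdh15 it was -0.17 (adjusted p = 0.00177).

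Cdh1 stood at 3.05, 2.86 and 2.97 in inflexible striatum, 3.12, 2.85 and 3.07 in light striatum, 3.07, 3.23 and 3.16 in inflexible prefrontal cortex, and 3.42, 3.33 and 3.41 in light prefrontal cortex. Light prefrontal cortex lay above all striatal arrays, and the difference between the regions was -0.28 ± 0.05 (adjusted p = 0.0145). Cdh6, a type II cadherin of the subgroup of Cdh9 and Cdh10, stood at 3.10, 3.21 and 3.09 in inflexible striatum, 3.11, 3.14 and 3.14 in light striatum, 3.28, 3.12 and 3.39 in inflexible prefrontal cortex, and 3.48, 3.39 and 3.33 in light prefrontal cortex. Its difference of -0.20 ± 0.05 (adjusted p = 0.0481) was lost in 16 of 21 alternatives, with an adjusted p of up to 0.943, and averaged over its probe sets it was -0.11 (adjusted p = 0.0241).

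**Figure D4:**
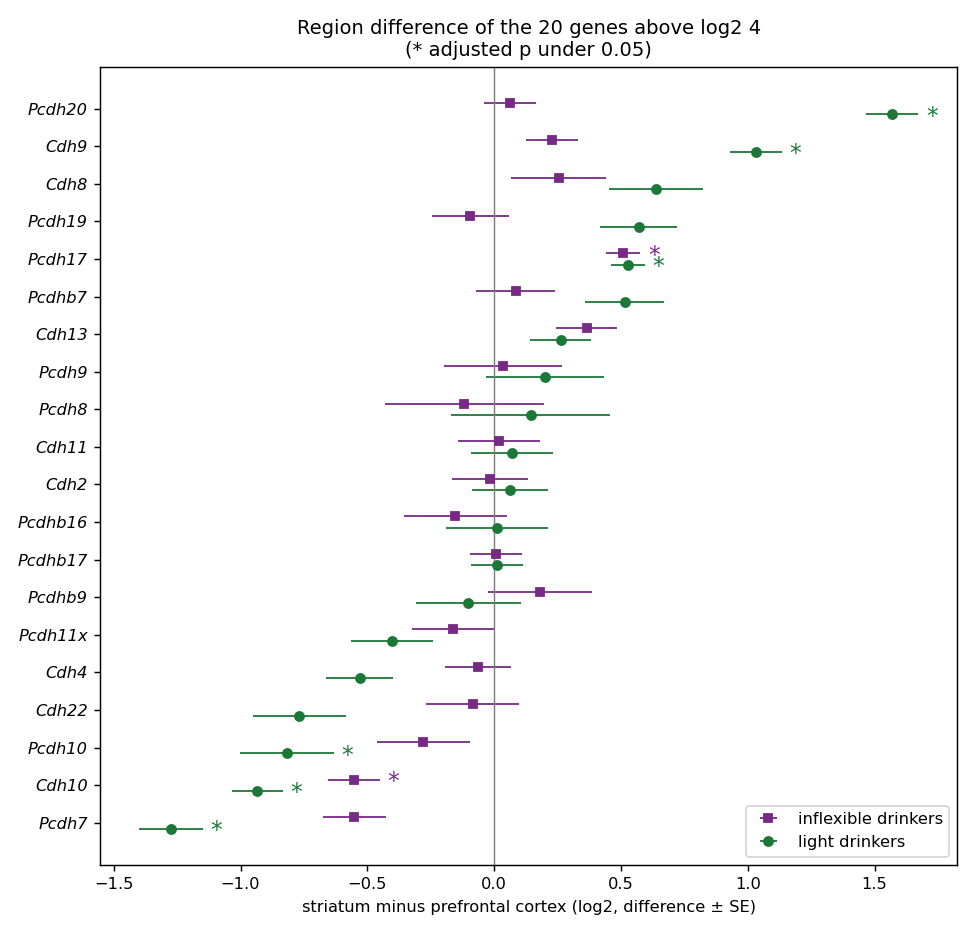
Difference between striatum and prefrontal cortex (log2, horizontal bars are SE) within inflexible (squares) and within light drinkers (circles) for the 20 genes above log2 4; a star marks an adjusted p under 0.05. The markers for Pcdh17 nearly coincide at 0.51 in inflexible and 0.53 in light drinkers, and those for Pcdh20 lie at 0.06 in inflexible and 1.57 in light drinkers.

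Among light drinkers 8 of 56 members (14.3%) passed between the regions, 3 higher and 5 lower in striatum, against 4.68% of all genes (2.18% higher and 2.5% lower). They were Pcdh20, Cdh9 and Pcdh17, which were higher, and Pcdh7, Cdh10, Pcdh10, Pcdh15 and Cdh1, which were lower. In a fit of the light drinkers' arrays alone Pcdh10 and Cdh1 did not pass (adjusted p = 0.102 for Cdh1), and 6 members did. In 23 members (41.1%) the arrays of the regions were apart, 12 higher and 11 lower in striatum, against 19.0% of all genes. Among inflexible drinkers Pcdh17 and Cdh10 passed, 2 of 56 (3.6%) against 1.2% of all genes, and neither passed in a fit of the inflexible drinkers' arrays alone (adjusted p = 0.134 for Pcdh17 and 0.197 for Cdh10). Among inflexible drinkers 6 members (10.7%) had arrays that were apart, against 12.6% of all genes. The difference between these counts was not tested. Pcdh10 passed among light drinkers and not for the average of the classes or among inflexible drinkers. It stood at 4.94, 4.90 and 4.92 in light striatum, against 5.47, 6.19 and 5.55 in light prefrontal cortex, a difference of -0.82 ± 0.18 (limma, adjusted p = 0.0447), and the lowest prefrontal array lay above the highest striatal one. In inflexible drinkers it stood at 5.09, 5.08 and 5.49 in striatum, against 5.33, 5.70 and 5.46 in prefrontal cortex, which overlapped. The average over the classes was -0.55 ± 0.13 (adjusted p = 0.051), and another, dimmer probe set passed for it with -0.32 ± 0.06 (adjusted p = 0.0127).

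The remaining members above log2 4 did not pass between the regions, averaged over the classes, by the probe set that stands for them. Cdh13 averaged 4.70 ± 0.06 in inflexible striatum, 4.67 ± 0.03 in light striatum, 4.34 ± 0.19 in inflexible prefrontal cortex and 4.40 ± 0.24 in light prefrontal cortex, and striatum differed by 0.31 (limma, adjusted p = 0.09). Cdh8 averaged 4.67 ± 0.09 in inflexible and 4.66 ± 0.37 in light striatum, a difference from prefrontal cortex of 0.45 (adjusted p = 0.126). Cdh22 averaged 4.13 ± 0.20 in inflexible and 3.87 ± 0.17 in light striatum, a difference of -0.43 (adjusted p = 0.136). Pcdh11x, a delta protocadherin of the X chromosome, averaged 4.13 ± 0.28 in inflexible striatum, 4.03 ± 0.18 in light striatum, 4.29 ± 0.15 in inflexible prefrontal cortex and 4.43 ± 0.23 in light prefrontal cortex, a difference of -0.28 (adjusted p = 0.328). Dimmer probe sets of 4 members passed where the brightest one did not: Cdh8 with 0.47 ± 0.09 (adjusted p = 0.0145), Cdh4 with -0.24 ± 0.04 (adjusted p = 0.0128), Cdh7, a type II cadherin not above log2 4, with -0.24 ± 0.04 (adjusted p = 0.00866), and Pcdh10 as given above. For Cdh8, Cdh4 and Pcdh10 the brightest probe set had the same sign as the dimmer one that passed. For Cdh7 it had the opposite sign, with 0.05 ± 0.03 (limma, adjusted p = 0.597). The dimmest probe set of Cdh7 had -0.03 ± 0.04 (adjusted p = 0.906). The probe sets of Cdh7 averaged between 3.09 and 3.10 over the 12 arrays, near the median of an array, so its direction is not settled. With these 4 members, 12 members passed by any probe set. By any probe set no count over all genes was made, and 27 of the 56 members had several probe sets. One of the probe sets shared by 14 alpha protocadherins was lower in striatum, with 4.68 in inflexible and 4.68 in light striatum, against 5.09 in inflexible and 5.03 in light prefrontal cortex (difference -0.38 ± 0.07, limma, adjusted p = 0.0128).

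The tissue labels were checked against markers in the same comparison. Over all genes, 2.41% were called higher in striatum and 2.96% lower. Of 16 medium spiny neuron markers 14 were higher in striatum and 0 lower, with a median difference of 1.73. Of 15 myelin markers 11 were higher and of 13 choroid plexus and ependyma markers 7, with 0 lower in either list. Olfactory bulb and neuroblast markers were lower in 5 of 12 genes and higher in 1. Meningeal markers were lower in 4 of 11 genes and higher in 1. Of 15 interneuron markers 3 were lower and 2 higher. Astrocyte markers were lower in 2 of 12 genes, septal and thalamic markers in 2 of 11 and microglia markers in 1 of 12, with 0 higher. Of 13 cortical excitatory markers 6 were lower and 3 higher. Tbr1, a transcription factor of deep-layer cortical neurons, averaged 3.94 ± 0.14 in inflexible striatum, 4.04 ± 0.14 in light striatum, 5.03 ± 0.13 in inflexible prefrontal cortex and 5.27 ± 0.02 in light prefrontal cortex. Ttr, the carrier protein made by choroid plexus, averaged 11.04 ± 0.28 in inflexible striatum, 11.33 ± 0.27 in light striatum, 10.78 ± 0.43 in inflexible prefrontal cortex and 4.53 ± 0.17 in light prefrontal cortex. Light prefrontal cortex was the group with the lowest means of Ttr, Pcdh20 and Cdh9. How much these markers bear on the region differences of the cadherins was not tested.

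The proteins that cadherins work with were counted from lists of partner genes. Over all genes, 1.04% were called between the classes in prefrontal cortex and 5.38% between the regions averaged over the classes. Of 12 catenins and junction linkers 1 fell in inflexible prefrontal cortex and 0 rose: Ctnnd2, the neuronal delta-catenin that binds the tails of classical cadherins. It averaged 7.10 ± 0.07 in inflexible and 7.45 ± 0.06 in light prefrontal cortex, a difference of -0.35 ± 0.04 (limma, adjusted p = 0.00657). It was also the one catenin that was lower in striatum than in prefrontal cortex (difference -0.43 ± 0.03, adjusted p = 6.8e-05). Ctnnb1, beta-catenin, averaged 8.10 ± 0.13 in inflexible striatum, 8.18 ± 0.11 in light striatum, 8.23 ± 0.14 in inflexible prefrontal cortex and 8.22 ± 0.04 in light prefrontal cortex, and passed no test.

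Of 22 other genes of the cadherin superfamily 1 fell in inflexible prefrontal cortex and 0 rose. This was Cdhr1, a cadherin of photoreceptors that is also found in olfactory bulb mitral cells, with 3.40 ± 0.24 in inflexible and 4.51 ± 0.26 in light prefrontal cortex (difference -1.11 ± 0.14, adjusted p = 0.00616). It is also on the olfactory bulb list, of which 3 genes fell. Fat4, a giant cadherin of planar polarity, differed by -0.27 ± 0.06 in striatum and 0.25 ± 0.06 in prefrontal cortex between the classes, neither of which passed, while the difference between them did (-0.51 ± 0.09, adjusted p = 0.0497). Cdhr1 and Clstn1, a calsyntenin that ties vesicles to kinesin, were lower in striatum, with differences of -0.70 ± 0.10 for Cdhr1 (adjusted p = 0.00318) and -0.40 ± 0.07 for Clstn1 (adjusted p = 0.0125).

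Of 12 genes of the WAVE complex and other protocadherin partners, 0 passed between the classes in either region, and 1 was lower in striatum, Cyfip2, a WAVE subunit (-0.38 ± 0.08, adjusted p = 0.033). None of 9 proteases that shed or process cadherins passed in the class comparisons, in their difference or between the regions averaged over the classes, and none of 14 regulators of clustered protocadherin promoters did, such as Ctcf and the cohesin genes.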

How the data were processed

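Per the labels' protocols, RNA for the 4 groups of 3 arrays was isolated with TRIzol, biotin-labelled and hybridised to 1-colour oligonucleotide arrays. The authors deposited a table of summarised log2 values per probe set, and RMA and the affy package are named, without versions, per the submitters' processing notes. The base is not written in the table and was taken as 2 because all values of tested probe sets lie between 2.76 and 11.56. Array medians lay between 3.12 and 3.14.

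Of 45101 probe sets, 64 controls were left out and 45037 were tested. A model of 4 group means over 12 arrays (8 residual degrees of freedom) was fitted with limma 3.58.1 (lmFit and eBayes) in R 4.3.3, with two-sided p-values adjusted by the Benjamini-Hochberg method over all probe sets and called under 0.05. The number of arrays limits the precision. Other steps used Python 3.11.15, pandas 2.3.3, numpy 2.4.6 and matplotlib 3.10.9. The fit was tested on simulated data.

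Members and gene lists were chosen with earlier results of these data known. Every array is given for members called between classes or regions, the other members above log2 4 are given by group means or ranges, arrays and differences named beyond that were picked after their values were seen, and partner and marker genes are named up to 4 per list by smallest p. All 56 member symbols matched the RefSeq table, which changed 0. Arrays with the same number in their titles came from no stated shared source, and their deviations from the group means correlated between -0.769 and 0.849, so they were not treated as pairs. Arrays of a group correlated at 0.976 to 0.998, and no columns were identical. Alternatives were quantile normalisation, a filter on dim probe sets, the hybridisation control split, arrays of one region or class, a replicate block, array weights, other probe sets and leaving out each array.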

Additional observations from a re-analysis of the deposited data

Results flagged for a closer look

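Pcdh20 was singled out because its difference between inflexible and light drinkers differed between the regions by a test of that difference itself. It was -0.22 ± 0.10 in striatum and 1.28 ± 0.10 in prefrontal cortex (log2, SE, n = 3 arrays per group), apart by -1.51 ± 0.15 (limma, adjusted p = 0.00362). Without any one array the value lay between -1.59 and -1.41. Among 20 alternatives the call was lost in 1, the arrays with high hybridisation controls alone, which keep 1 residual degree of freedom. All inflexible prefrontal arrays lay above all light ones, and the striatal arrays of the classes overlapped.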

How the results depend on the processing

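None of the results called with all arrays changed direction under any alternative that was run, and some differences that missed the test did within the hybridisation control split. Of these, Cdh9 in striatum was 0.03 on the low-control arrays in place of -0.22, and Pcdh20 between the regions in inflexible drinkers was -0.12 on the high-control arrays in place of 0.06. In prefrontal cortex 2 members and 372 probe sets were called. The hybridisation control split as a block called 7 members and 1119 probe sets, the low-control arrays alone 5 and 1243, the high-control arrays alone 0 and 0, and array weights 9 and 2955, so the counts over all probe sets moved too. Any probe set gave 4 members, and the mean of the probe sets of a gene gave 4 and 245 genes in all. By any probe set no count over all genes was made, here or below. Leaving out 1 array gave 1 to 2 members, with 157 to 394 probe sets. With the replicate block 1 member and 206 probe sets were called there, without Cdh9. In striatum the block called 0 members and 4 probe sets, and for the difference between regions 1 and 51. Between regions it called 7 members and 1445 probe sets, and Cdh6 was lost. In striatum, against 0 members and 5 probe sets, the control block gave 1 and 34. For the difference between regions, against 1 member and 141 probe sets, the filter on dim probe sets gave 2 and 142, the control block 4 and 443, the low-control arrays 3 and 178, the high-control arrays 0 and 0, array weights 4 and 800, any probe set 2 members and the mean of probe sets 2; leaving out 1 array gave 1. Of all genes, the mean of probe sets called 115 for that difference, and leaving out 1 array called 62 to 161 probe sets. Cdh9 passed for it in 4 of 20 alternatives. Between striatum and prefrontal cortex, against 8 members and 1720 probe sets, the control block gave 14 and 3601, the low-control arrays 13 and 3246, the high-control arrays 0 and 0, array weights 14 and 4136, light drinkers alone 6 and 1014, inflexible drinkers alone 0 and 61, and the mean of probe sets 13 members; leaving out 1 array gave 7 to 9. For the 13 members by the mean of probe sets no count over all genes is given here. Without light prefrontal replicate 1 the region comparison called 1286 probe sets, and without light prefrontal replicate 2 it called 1826. With a threshold of log2 5, 11 members lay above it in place of 20, and all genes were not counted at that threshold. Leaving out 1 array gave 19 to 21 members above log2 4. The prefrontal difference of Pcdh20 stayed between 1.06 and 1.35 and was called in 20 of 21 alternatives, all but the high-control arrays (adjusted p = 0.546). That of Cdh9 stayed between 0.51 and 0.67 and was called in 10 of 21 (adjusted p between 0.000561 and 0.58). The high-control fit has 1 residual degree of freedom, so its missing calls say nothing about stability. Low signal limits what can be read for the 36 members not above log2 4.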
